A study of Mus musculus with 6 samples.

Results

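Interferon-induced GTPases are proteins that cells make in quantity when interferons, above all interferon gamma, reach them. The group described here holds 8 mouse genes, Iigp1, Igtp, Irgm1 and Irgm2 of the immunity-related GTPase (Irg) family and Gbp2, Gbp3, Gbp5 and Gbp7 of the guanylate-binding protein (Gbp) family. They were taken by gene symbol from the array's annotation, as every probe set that carried a listed symbol. They are 8 of 21335 symbols on the array, and were read from 7 probe sets of 23410 with a gene symbol, out of 35556 rows in all. Of the 7, 5 carried 1 symbol and 2 were shared. Irgm2 and Igtp had a single probe set (10376326) between them, and the probe set of Gbp2 (10496592) also carried Gbp2b, a relative outside the group. Values of the shared probe sets are given for the pair and cannot be assigned to either gene.

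The arrays held total RNA of CD44+ CD4+ T cells sorted from the draining lymph nodes of male mice aged 8 to 10 weeks that had received keyhole limpet haemocyanin (KLH) in complete Freund's adjuvant (CFA). All mice carried a red fluorescent reporter of Bcl6 (Bcl6_RFP), and the cells of every group therefore came from reporter animals. There were 3 groups of 2 arrays. Cxcr5+Bcl6+ cells carried the follicular homing receptor Cxcr5 and the reporter, Cxcr5+Bcl6- cells carried the receptor without the reporter, and Cxcr5-Bcl6- cells carried neither. CFA contains killed mycobacteria, and no group of unimmunised mice or of cells without interferon was analysed here. The series calls the arrays of a group biological replicates, but pooling of mice is not stated in the labels, and p-values measure only the spread between these arrays.

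Irg and Gbp proteins are best known as cell-autonomous defences of mice against intracellular parasites and bacteria. Effector Irg proteins such as Iigp1 (Irga6) assemble on the vacuole around Toxoplasma and break it. Irgm1, Irgm2 and Igtp (Irgm3) are regulatory Irg proteins that sit on the cell's own membranes and keep the effectors inactive there. Gbp proteins join them on the vacuole and also help to expose bacterial products to inflammasomes. The genes are switched on through the interferon gamma receptor and the kinases Jak1 and Jak2, and by interferon regulatory factors such as Irf1. Known control motifs of such genes are the gamma-activated sequence (GAS) and the interferon-stimulated response element (ISRE), which interferon regulatory factors bind. In mice, Irgm1 protects activated CD4+ T cells from death under interferon gamma.

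The start regions of the group are shown because their members share a motif that the choice by symbol did not use. RefSeq start regions of GRCm38.p6 (250 bases before to 50 after the start of the gene) were found for 7 of the 8 genes, all but Iigp1. They were searched on both strands for an ISRE core, a pair of GAAA with any 2 bases between them, and for a GAS core, TTCNNNGAA. An ISRE core was found for 7 of 7 genes, against 3.44% of 32851 start regions of the same length. A GAS core was found for 4 of 7 genes (Igtp, Irgm2, Gbp5 and Gbp7), against 8.3% of all start regions. Where ISRE cores overlapped, as in Irgm1 and Gbp3, the matches were counted separately. Gbp3 has 2 annotated starts, and the core was found at 1 of them. A match is a run of letters and not a measured binding site. The 80 bases around the ISRE core are printed below 5′ to 3′ on the gene's own strand, with ISRE and GAS cores in capitals.
Irgm1, chr11:48871403-48871482, minus strand: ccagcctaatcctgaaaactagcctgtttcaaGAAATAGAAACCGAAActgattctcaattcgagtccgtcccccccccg
Igtp, chr11:58199487-58199566, plus strand: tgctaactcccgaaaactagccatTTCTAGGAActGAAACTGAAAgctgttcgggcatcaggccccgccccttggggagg
Irgm2, chr11:58214878-58214957, plus strand: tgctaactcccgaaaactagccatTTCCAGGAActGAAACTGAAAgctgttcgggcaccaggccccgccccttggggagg
Gbp2, chr3:142620569-142620648, plus strand: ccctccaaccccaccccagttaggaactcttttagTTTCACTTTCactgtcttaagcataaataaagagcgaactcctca
Gbp3, chr3:142559967-142560046, plus strand: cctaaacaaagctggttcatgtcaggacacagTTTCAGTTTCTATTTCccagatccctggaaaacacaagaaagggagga
Gbp5, chr3:142496734-142496813, plus strand: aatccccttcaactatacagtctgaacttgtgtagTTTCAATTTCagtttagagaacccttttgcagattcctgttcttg
Gbp7, chr3:142530248-142530327, plus strand: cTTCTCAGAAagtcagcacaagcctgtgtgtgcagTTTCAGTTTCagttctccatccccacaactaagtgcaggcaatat

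The windows of Igtp and Irgm2, the pair that shares a probe set, differed at 2 of 80 bases. In both, a GAS core stood just before the ISRE core. In Irgm1, 2 ISRE cores overlapped as GAAATAGAAACCGAAA, with no GAS core in the 300 bases. In the Gbp genes of chromosome 3 the core lay in the other orientation, as TTTCACTTTC in Gbp2, TTTCAGTTTC in Gbp7 and TTTCAATTTC in Gbp5, and both GAS cores of Gbp5 fell outside the window shown. Of 603 measured genes outside the group with an ISRE core, 22.1% were lower and 17.6% higher in Cxcr5+Bcl6+ cells than among Cxcr5-Bcl6- cells, against 17.8% lower and 16.7% higher among 15007 genes without one. For the GAS core, 17.6% of 1401 genes with it were lower and 16% higher, against 18% lower and 16.8% higher among 14209 genes without it. Against Cxcr5+Bcl6- cells, 20.7% of the genes with an ISRE core were lower and 15.6% higher in Cxcr5+Bcl6+ cells. Without the core, 13.1% were lower and 12% higher. With a GAS core 14.3% were lower and 12.2% higher there, and without it 13.3% and 12.2%. These shares were not tested.

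Irg and Gbp transcripts were lower in Cxcr5+Bcl6+ cells than in either group without the reporter. All 7 probe sets were called lower against Cxcr5-Bcl6- cells, by 3.57-fold to 17.9-fold, and all 7 against Cxcr5+Bcl6- cells, by 3.94-fold to 14.1-fold. In neither comparison did the arrays of the groups overlap for any of the 7, which held with a lower level for 28.1% and 26.4% of all named probe sets. A call is an adjusted p under 0.05 in limma's moderated test (two-sided, Benjamini-Hochberg over all 23410 named probe sets). Of all named probe sets, 17.7% were called lower against Cxcr5-Bcl6- cells and 13% against Cxcr5+Bcl6- cells, and a call with a fall of at least 2-fold was made for 3.66% and 1.65%. The median difference in log2 level of the 7 was -2.39 against Cxcr5-Bcl6- cells and -2.37 against Cxcr5+Bcl6- cells, where the median of all named probe sets was 0.04 and 0.05. These comparisons share the Cxcr5+Bcl6+ arrays and are not independent. In bulk RNA, fewer cells with a transcript and less transcript per cell cannot be told apart.

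**Figure D1:**
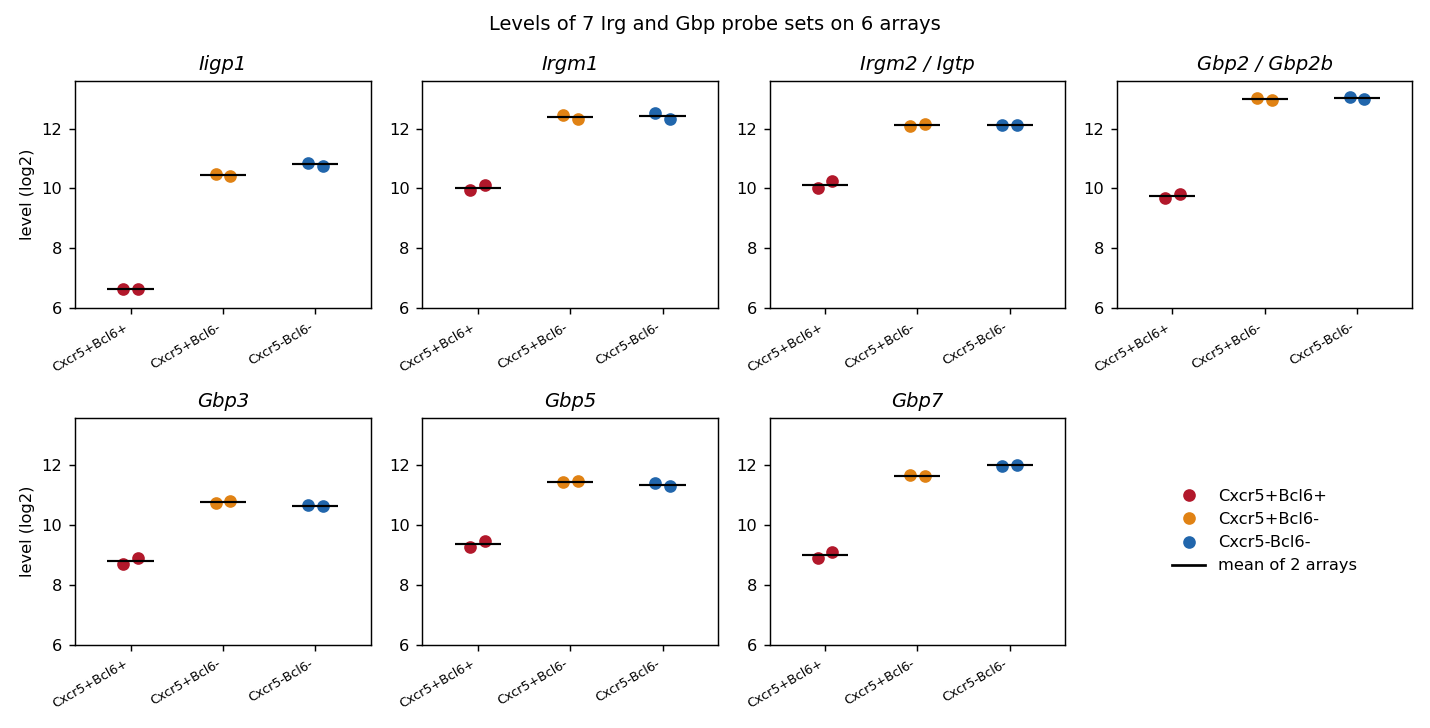
Log2 level of each of the 7 probe sets on the 6 arrays, with the mean of the 2 arrays of a group as a line. The Cxcr5+Bcl6+ points lie below the points of both other groups in every panel, and Iigp1 lies at 6.64 there, against 10.42 to 10.86 on the other 4 arrays.

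Among the Irg genes, the effector Iigp1 (probe set 10455961) had log2 levels of 6.65 and 6.64 in Cxcr5+Bcl6+ cells, 10.50 and 10.42 in Cxcr5+Bcl6- cells, and 10.86 and 10.75 in Cxcr5-Bcl6- cells. The Cxcr5+Bcl6+ arrays were far below the other 4, with no overlap. The log2 difference was -4.16 (SE 0.0895, n = 2 arrays per group, adjusted p = 2.5e-10 in limma) against Cxcr5-Bcl6- cells and -3.81 (adjusted p = 4.98e-10) against Cxcr5+Bcl6- cells. In Cxcr5-Bcl6- and Cxcr5+Bcl6- cells Iigp1 stood above 100% of 1218 probe sets for olfactory, vomeronasal and trace-amine receptors, gene families with no known role in T cells. In Cxcr5+Bcl6+ cells it stood above 72.2% of them, within the level of unused genes, so the 17.9-fold and 14.1-fold falls may understate the change. It was the only 1 of the 7 below the 95th percentile of those receptors in Cxcr5+Bcl6+ cells.

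The regulatory Irg genes fell less but were also far from overlapping. Irgm1 (probe set 10385500) had log2 levels of 9.95 and 10.10 in Cxcr5+Bcl6+ cells, 12.46 and 12.34 in Cxcr5+Bcl6- cells, and 12.52 and 12.32 in Cxcr5-Bcl6- cells. The Cxcr5+Bcl6- and Cxcr5-Bcl6- arrays lay across each other, while both Cxcr5+Bcl6+ arrays were lower. The difference was -2.39 against Cxcr5-Bcl6- cells (SE 0.102, adjusted p = 2.15e-08 in limma), a 5.25-fold fall, and -2.37 against Cxcr5+Bcl6- cells (adjusted p = 3.97e-08).

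The shared probe set of Irgm2 and Igtp had log2 levels of 10.003 and 10.24 in Cxcr5+Bcl6+ cells, 12.10 and 12.16 in Cxcr5+Bcl6- cells, and 12.13 and 12.14 in Cxcr5-Bcl6- cells. The Cxcr5+Bcl6+ arrays were again the 2 lowest. The difference was -2.01 against Cxcr5-Bcl6- cells (SE 0.099, adjusted p = 5.11e-08 in limma) and -2.01 against Cxcr5+Bcl6- cells (adjusted p = 1.22e-07), a fall of 4.04-fold and 4.03-fold.

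The Gbp genes of chromosome 3 split by size. The probe set of Gbp2 and Gbp2b, which encode lipid-anchored GTPases of the vacuole coat, had log2 levels of 9.69 and 9.80 in Cxcr5+Bcl6+ cells, 13.03 and 12.96 in Cxcr5+Bcl6- cells, and 13.08 and 12.99 in Cxcr5-Bcl6- cells. It fell by 3.29 on the log2 scale against Cxcr5-Bcl6- cells (9.76-fold, SE 0.0913, adjusted p = 1.01e-09 in limma) and differed by -3.25 from Cxcr5+Bcl6- cells (adjusted p = 1.35e-09). Gbp2b also had a probe set of its own (10496555), which read 7.89 and 8.32 in Cxcr5+Bcl6+ cells, 11.36 and 11.31 in Cxcr5+Bcl6- cells, and 11.30 and 11.21 in Cxcr5-Bcl6- cells. With a difference of -3.15 against Cxcr5-Bcl6- cells for Gbp2b alone, the part of Gbp2 in the shared value cannot be told apart.

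Gbp7 (probe set 10496569), which in mouse macrophages helps to assemble the phagocyte oxidase, had log2 levels of 8.90 and 9.09 in Cxcr5+Bcl6+ cells, 11.67 and 11.63 in Cxcr5+Bcl6- cells, and 11.98 and 12.03 in Cxcr5-Bcl6- cells. The 3 groups stood in separate steps. It was 8.04-fold lower in Cxcr5+Bcl6+ cells than among Cxcr5-Bcl6- cells (log2 difference -3.01, SE 0.0946, adjusted p = 2.21e-09 in limma) and 6.29-fold lower than in Cxcr5+Bcl6- cells (-2.65, adjusted p = 8.91e-09).

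Gbp5 and Gbp3 showed the smallest falls of the Gbp probe sets. Gbp5 (probe set 10496539), known for its part in inflammasome responses, had log2 levels of 9.27 and 9.48 in Cxcr5+Bcl6+ cells, 11.43 and 11.47 in Cxcr5+Bcl6- cells, and 11.41 and 11.32 in Cxcr5-Bcl6- cells. Its difference was -1.98 against Cxcr5-Bcl6- cells (SE 0.0977, adjusted p = 5.17e-08 in limma) and -2.07 against Cxcr5+Bcl6- cells (adjusted p = 8.4e-08). Gbp3 (probe set 10496580) had log2 levels of 8.71 and 8.91 in Cxcr5+Bcl6+ cells, 10.76 and 10.82 in Cxcr5+Bcl6- cells, and 10.66 and 10.64 in Cxcr5-Bcl6- cells. Its difference was -1.84 against Cxcr5-Bcl6- cells (SE 0.0956, adjusted p = 7.89e-08 in limma) and -1.98 against Cxcr5+Bcl6- cells (adjusted p = 1.06e-07). For both genes the Cxcr5+Bcl6- arrays were the highest pair and the Cxcr5+Bcl6+ arrays the lowest.

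The differences against Cxcr5-Bcl6- cells varied within the families beyond their 95% confidence intervals. The interval of Iigp1 ran from -4.36 to -3.97, below that of Irgm1, from -2.62 to -2.17. The interval of the Gbp2 and Gbp2b probe set ran from -3.49 to -3.09, and that of Gbp7 from -3.22 to -2.80. Those of Gbp5 (-2.20 to -1.77) and Gbp3 (-2.05 to -1.63) overlapped each other and that of the Irgm2 and Igtp probe set (-2.23 to -1.80). The value of Iigp1 and its interval are those of the array reading, limited by background in Cxcr5+Bcl6+ cells.

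**Figure D2:**
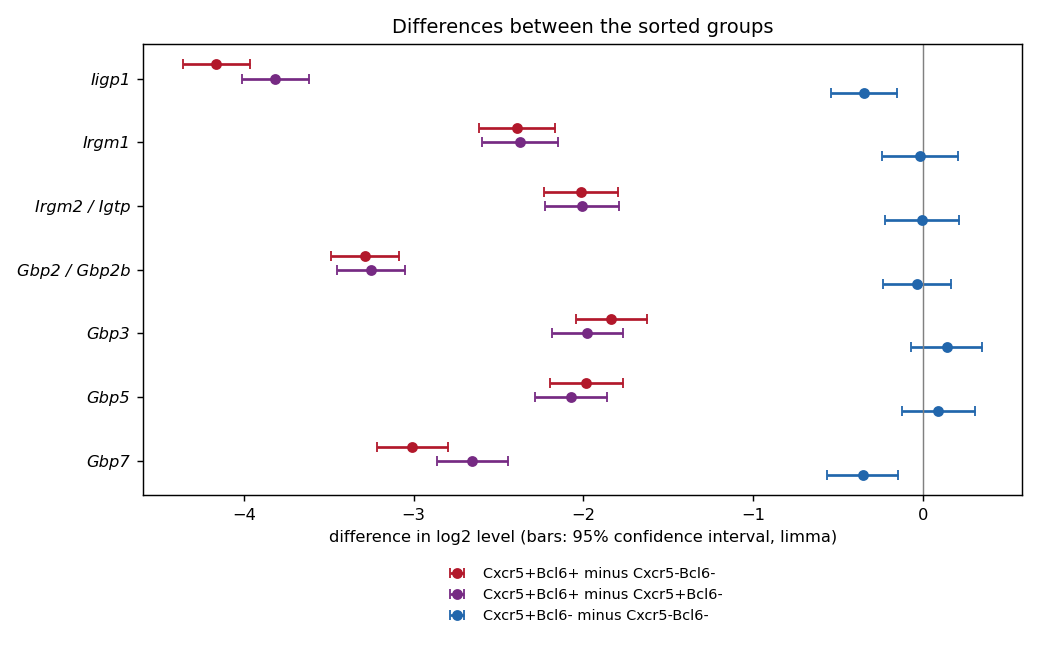
Difference in log2 level between the groups for the 7 probe sets, with 95% confidence intervals from limma. Differences of Cxcr5+Bcl6+ cells against either other group lie between -4.16 and -1.84, and those of Cxcr5+Bcl6- against Cxcr5-Bcl6- cells between -0.35 and 0.14.

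**Figure D3:**
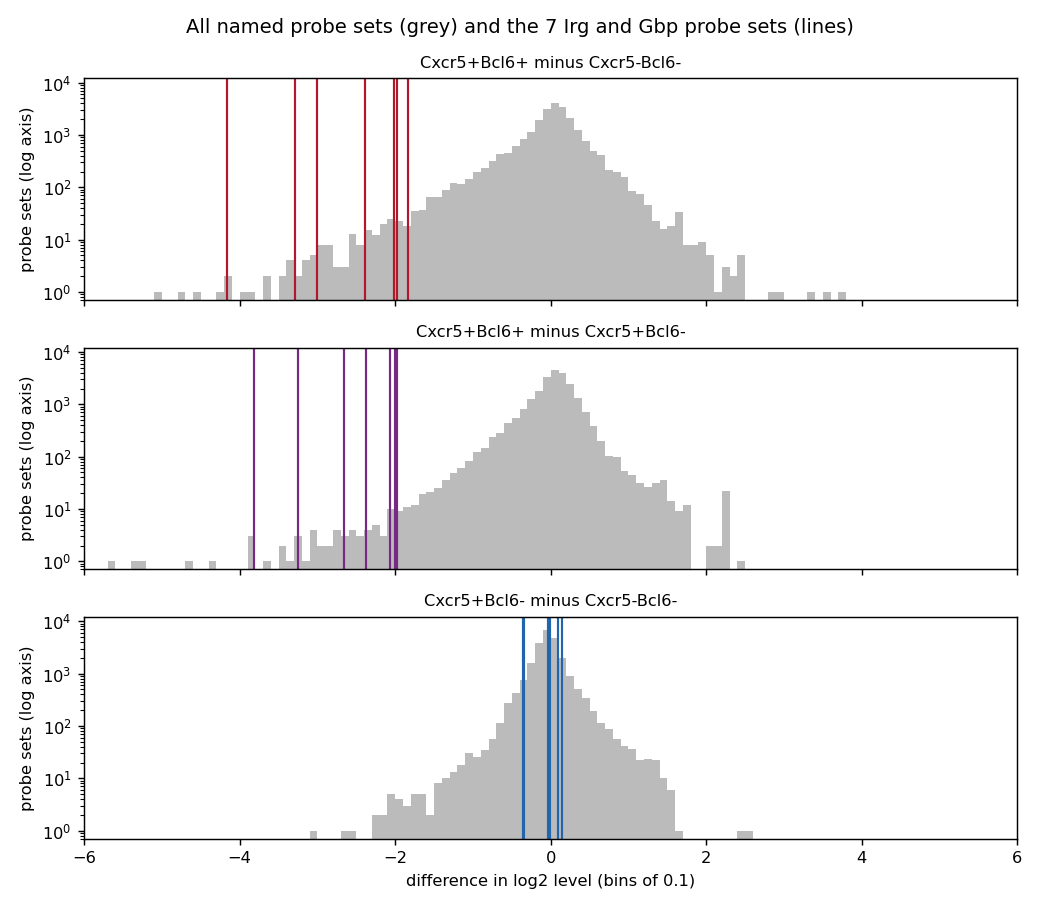
Number of named probe sets (grey, log axis) by difference in log2 level in bins of 0.1, with the 7 Irg and Gbp probe sets as lines. In both comparisons of Cxcr5+Bcl6+ cells the lines lie in the lower tail, and for Cxcr5+Bcl6- set against Cxcr5-Bcl6- cells they lie from -0.35 to 0.14.

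Without the reporter, Cxcr5+ and Cxcr5- cells had nearly the same Irg and Gbp levels. Between Cxcr5+Bcl6- cells and Cxcr5-Bcl6- cells 2 of the 7 probe sets were called, both lower, against 5.93% of all named probe sets called lower and 5.22% called higher. Their arrays did not overlap for these 2, lower, and for Gbp3 and Gbp5, higher, where 30.8% and 19.3% of all named probe sets showed the same. They were Iigp1 (-0.35, 95% confidence interval -0.54 to -0.15, adjusted p = 0.0276 in limma) and Gbp7 (-0.35, interval -0.56 to -0.15, adjusted p = 0.0329). Neither call held without Cxcr5-Bcl6- replicate 1 (adjusted p = 0.123 for Iigp1 and 0.0637 for Gbp7), without Cxcr5+Bcl6- replicate 1 (0.128 and 0.159) or without Cxcr5+Bcl6- replicate 2 (0.271 and 0.225), and that of Gbp7 also ended without Cxcr5-Bcl6- replicate 2 (0.113). Both ended as well after centring each array (0.058 and 0.0579) and when all 35556 rows were tested (0.0892 and 0.11).

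The other 5 did not pass. Irgm1 differed by -0.02 (interval -0.24 to 0.21), the Irgm2 and Igtp probe set by -0.0045 (-0.22 to 0.21) and the Gbp2 and Gbp2b probe set by -0.04 (-0.24 to 0.16). Gbp3 differed by 0.14 (-0.07 to 0.35) and Gbp5 by 0.09 (-0.12 to 0.31). These intervals exclude a difference of the size seen against Cxcr5+Bcl6+ cells for each of the 7, but they do not show that the levels were equal. The order of levels was thus Cxcr5+Bcl6+ lowest for all 7, with the other 2 groups distinguishable only for Iigp1 and Gbp7, within the limits just given.

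Relatives of the group outside the list fell too. Of 8 other Irg and Gbp genes with a probe set of their own, 7 were lower in Cxcr5+Bcl6+ cells than among Cxcr5-Bcl6- cells and 1 did not pass, with a median log2 difference of -1.76, against 0.04 over 19938 genes at 1 probe set each. The same counts, 7 lower and 1 not passed, held against Cxcr5+Bcl6- cells (median -1.53). Gbp2b (-3.15), Gbp11 (-2.16), Gbp8 (-2.08) and Gbp4 (-1.92) fell against Cxcr5-Bcl6- cells, and Gbp9 fell by 0.93 on the log2 scale. The gene that did not pass was Irgq (0.23, adjusted p = 0.0745), named after its value was seen. Between Cxcr5+Bcl6- cells and Cxcr5-Bcl6- cells only Gbp11 of the 8 was called (-0.49, adjusted p = 0.00657). A probe set carrying the symbols of 6 Gbp genes of the second cluster (Gbp4, Gbp6, Gbp8, Gbp9, Gbp10 and Gbp11) differed by -2.46 between Cxcr5+Bcl6+ cells and Cxcr5-Bcl6- cells, and 2 probe sets shared by the T cell GTPases Tgtp1 and Tgtp2 by -2.61 and -2.50.

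The upstream pathway moved in part. Ifng, the ligand, which T cells themselves secrete, had log2 levels of 7.50 and 7.50 in Cxcr5+Bcl6+ cells, 12.80 and 12.82 in Cxcr5+Bcl6- cells, and 11.60 and 11.67 in Cxcr5-Bcl6- cells. It was therefore higher in Cxcr5+Bcl6- cells than among Cxcr5-Bcl6- cells, by 1.17 (SE 0.0862, adjusted p = 9.26e-06 in limma), a step that no Irg or Gbp probe set of the group followed upward past the threshold. In Cxcr5+Bcl6+ cells the log2 level of Ifng differed by -5.31 from that of Cxcr5+Bcl6- cells and by -4.14 from that of Cxcr5-Bcl6- cells. In Cxcr5+Bcl6+ cells Ifng stood below the 95th percentile of the unused receptor genes.

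Of 14 measured genes of interferon gamma signalling, 9 were lower, 2 higher and 3 not passed in Cxcr5+Bcl6+ against Cxcr5-Bcl6- cells (median -0.63), and 8 were lower, 1 higher and 5 not passed against Cxcr5+Bcl6- cells (median -0.45). Called higher were 17.6% and 13.4% of all named probe sets. Between Cxcr5+Bcl6- cells and Cxcr5-Bcl6- cells 4 were lower, 1 higher and 9 not passed (median -0.15). Ifngr2, the signalling chain of the receptor, was lower in Cxcr5+Bcl6+ cells than among Cxcr5-Bcl6- cells by 0.89 and already lower by 0.50 in Cxcr5+Bcl6- cells. Irf8 and Irf1, which encode factors that bind ISRE motifs, differed by -2.74 and -1.60 between Cxcr5+Bcl6+ cells and Cxcr5-Bcl6- cells, and Socs1, the feedback inhibitor of Jak kinases, by -2.02.

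Other pathway genes were named after their values were seen. The ligand-binding chain Ifngr1 differed by -0.11 (adjusted p = 0.357) and Jak2 by 0.02 (adjusted p = 0.877) between Cxcr5+Bcl6+ cells and Cxcr5-Bcl6- cells. The 2 that rose were Jak1 (0.26), a kinase shared by many cytokine receptors, and the phosphatase gene Ptpn11 (0.53). A second probe set of Irf1 (10385870) fell by 0.77 on the log2 scale, less than the brighter one. For Socs3, a second inhibitor of cytokine signals, the brighter of 2 probe sets differed by -0.55 (adjusted p = 0.00231) and the dimmer by -0.08 (adjusted p = 0.64).

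**Figure D4:**
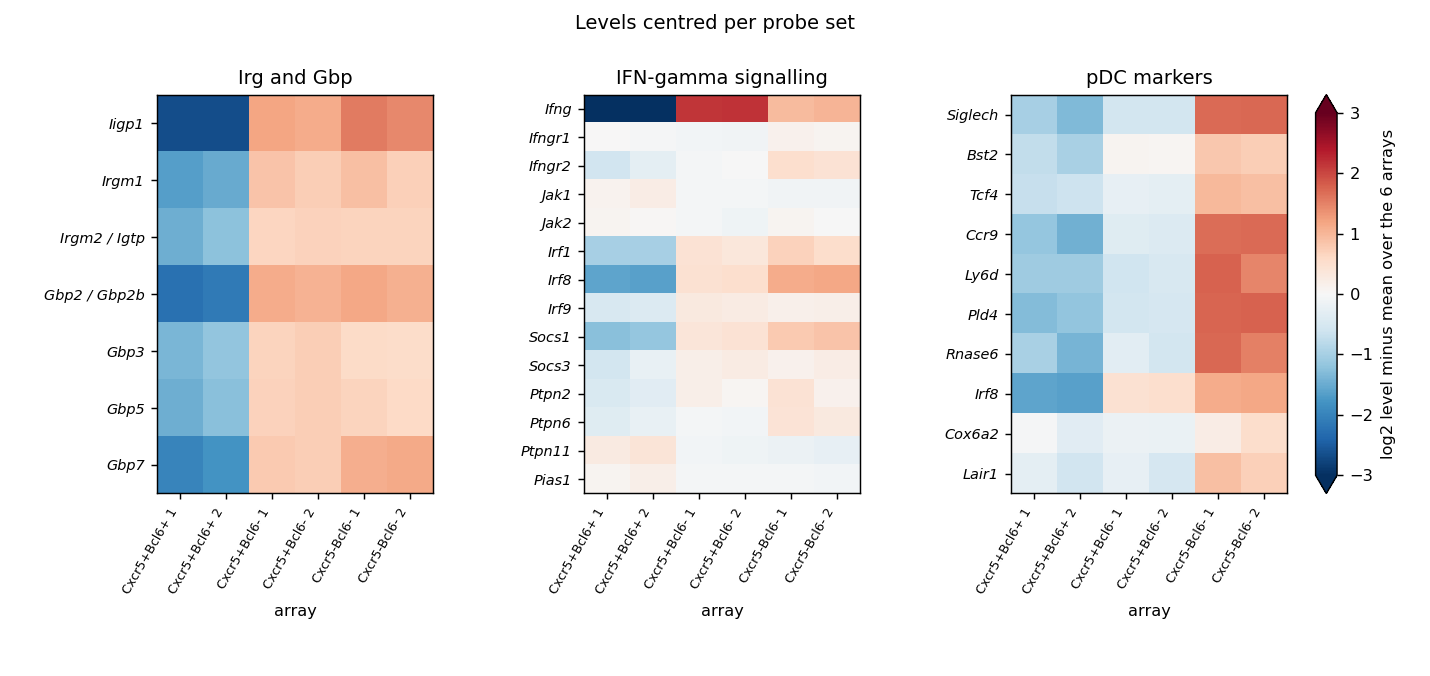
Log2 level of each gene on each of the 6 arrays minus its mean over the arrays, for the 7 Irg and Gbp probe sets, 14 interferon gamma signalling genes and 10 markers of plasmacytoid dendritic cells (pDC); the colour scale ends at -3 and 3. Irg and Gbp probe sets are low on the Cxcr5+Bcl6+ arrays and high on the other 4, and most pDC markers are highest on the Cxcr5-Bcl6- arrays and lowest on the Cxcr5+Bcl6+ arrays.

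Other interferon gamma targets had a smaller median difference than the 7 probe sets, which was not tested. Of 17 measured, 13 were lower and 4 not passed in Cxcr5+Bcl6+ against Cxcr5-Bcl6- cells (median -0.45), and 13 were lower, 1 higher and 3 not passed against Cxcr5+Bcl6- cells (median -0.51). Of the 4, Ido1 and Nos2 lay below the 95th percentile of the unused receptor genes in both groups of the first comparison, so no fall could be read. Ciita had means of 7.79 and 7.75 there, and Batf2 7.89 and 7.77. Nlrc5 was read from the brightest of its 19 probe sets (-0.45), and the 19 ran from -0.93 to -0.07. Ido1, Nos2, Batf2 and Nlrc5 were named after their values were seen. The inhibitory ligand Cd274 (PD-L1) differed by -1.94 and the chemokine Cxcl10 by -1.71 between Cxcr5+Bcl6+ cells and Cxcr5-Bcl6- cells. The proteasome genes Psme2 and Psmb9 differed by -0.70 and -0.59. Cxcl9, a chemokine gene of myeloid and dendritic cells, had means of 7.03 for Cxcr5+Bcl6+ cells, 7.80 for Cxcr5+Bcl6- cells and 9.56 for Cxcr5-Bcl6- cells, and stood above 82.8% of the unused receptor probe sets in Cxcr5+Bcl6+ cells. It fell by 1.76 on the log2 scale between Cxcr5+Bcl6- cells and Cxcr5-Bcl6- cells (adjusted p = 8.07e-07), where Cxcl10 differed by 0.02 (adjusted p = 0.952).

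Type I interferon response genes, many of which interferon gamma also induces, were lower in 20 of 21 measured cases in Cxcr5+Bcl6+ against Cxcr5-Bcl6- cells (median -1.29) and in 21 of 21 against Cxcr5+Bcl6- cells (median -1.19). Usp18 (-3.50), Rtp4 (-3.26), Ifit3 (-2.99) and Ifit1 (-2.54) fell against Cxcr5-Bcl6- cells. In Cxcr5+Bcl6+ cells these 4 and 8 more of the 21 lay below the 95th percentile of the unused receptor genes, so these differences, like that of Iigp1, are limited by background. The gene not passed was the antiviral GTPase Mx1 (0.03, adjusted p = 0.862), itself an interferon-induced GTPase of another family. Mx1 was 1 of the 8, with means of 7.51 in Cxcr5+Bcl6+ cells and 7.48 in Cxcr5-Bcl6- cells. In the latter it stood above 96% of the unused receptor probe sets, so it left little room to read a fall. Between Cxcr5+Bcl6- cells and Cxcr5-Bcl6- cells 3 were lower, 2 higher and 16 not passed, with Usp18 (-0.97) and Oas2 (-0.98) among the falls and Mx1 (0.65) among the rises. The data hold no measure that separates the 2 interferon types as the source.

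Among 19792 genes outside the lists, the 5 nearest to the group's median pattern over the 3 group means were Cysltr2, Utf1, Zc3h12c, Lilr4b and Penk. Likeness was the Euclidean distance between group means after each gene was centred on its own mean, in log2 units. The distances ran from 0.0715 for Cysltr2 to 0.158 for Penk, where those of the group's own 7 probe sets ran from 0.0195 to 1.34. In Cxcr5+Bcl6+ cells Cysltr2 stood above 28.7% of the unused receptor probe sets, Lilr4b above 78.9%, Zc3h12c above 92.3% and Utf1 above 94.9%, so their falls, and with them this ranking, are limited by background. Penk stood above 98.9%. Cysltr2, a leukotriene receptor gene, read 5.36 and 5.37 in Cxcr5+Bcl6+ cells, 7.64 and 7.68 in Cxcr5+Bcl6- cells, and 7.66 and 7.65 in Cxcr5-Bcl6- cells. Penk, the proenkephalin gene, read 8.35 and 8.45 in Cxcr5+Bcl6+ cells, 10.90 and 10.88 in Cxcr5+Bcl6- cells, and 10.72 and 10.69 in Cxcr5-Bcl6- cells. Likeness over 3 group means is a description.

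Genes next to the group on the chromosome were named after the values of the group were known. They were the nearest 2 protein-coding genes on each side with a probe set of their own, in the RefSeq order of GRCm38.p6. Genes without one, such as those read only from shared probe sets, were passed over. On chromosome 3, Kyat3, the gene after the Gbp cluster, was lower in Cxcr5+Bcl6+ cells than among Cxcr5-Bcl6- cells by 0.99, and Pdlim5, the gene before it, by 0.62 (adjusted p = 6.72e-06 and 0.000152). Gtf2b, the second after it, differed by -0.32 (adjusted p = 0.0132) and Bmpr1b, the second before it, by 0.42 (adjusted p = 0.00467). On chromosome 11, the gene beside Igtp is Gm12250, for which RefSeq gives the synonym Irgb10, a further Irg gene. It read 8.20 and 8.17 in Cxcr5+Bcl6+ cells, 11.86 and 11.79 in Cxcr5+Bcl6- cells, and 11.94 and 11.81 in Cxcr5-Bcl6- cells, a difference of -3.69 against Cxcr5-Bcl6- cells (adjusted p = 4.69e-10 in limma) and -3.64 against Cxcr5+Bcl6- cells. The next gene on that side, Mrpl22, differed by -0.36 from Cxcr5-Bcl6- cells (adjusted p = 0.00641). On the far side of Irgm2, 4930438A08Rik and Zfp692 differed by 0.14 and 0.03 (adjusted p = 0.284 and 0.858). Before Irgm1, Trim7 and Trim41 differed by 0.22 and 0.19 (adjusted p = 0.102 and 0.109). After it, the Irg relative Gm12185, 2 genes away, differed by -1.29 (adjusted p = 4.15e-06 in limma). The olfactory receptor gene Olfr1396, 9 genes away, differed by 0.25 (adjusted p = 0.0387). The genes between were passed over, so these values do not show where along the chromosome the falls end.

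Dendritic cell and myeloid marker transcripts also moved between the groups. Of 10 measured pDC markers, 10 were lower in Cxcr5+Bcl6+ and 10 in Cxcr5+Bcl6- against Cxcr5-Bcl6- cells, with medians of -2.72 and -1.63. In Cxcr5+Bcl6+ against Cxcr5+Bcl6- cells 8 of the 10 were lower and 2 not passed (median -0.66). Pld4 read 6.89 and 7.002 in Cxcr5+Bcl6+ cells, 7.63 and 7.68 in Cxcr5+Bcl6- cells, and 9.91 and 9.94 in Cxcr5-Bcl6- cells. The summed linear level of the 10 markers was 2583 to 2869 for Cxcr5+Bcl6+ cells, 5233 to 5241 for Cxcr5+Bcl6- cells and 12322 to 12717 for Cxcr5-Bcl6- cells, in array units. The list includes Irf8, which also stands among the signalling genes. Irf8 had the highest mean of the 10 in Cxcr5+Bcl6- cells (10.97) and a mean of 8.88 in Cxcr5+Bcl6+ cells. Its difference between these groups was -2.09, where the next largest was -0.93 (Bst2). The step in the sum between them therefore leans on Irf8 and does not measure pDC RNA alone. For the 7 Irg and Gbp probe sets the sum was 4462 to 5041 for Cxcr5+Bcl6+ cells, 26954 to 27594 for Cxcr5+Bcl6- cells and 27795 to 29237 for Cxcr5-Bcl6- cells. Of 22 myeloid and conventional dendritic cell markers, 10 were lower and 1 higher in Cxcr5+Bcl6- cells than among Cxcr5-Bcl6- cells, and their sum was 3519 to 3543 for Cxcr5+Bcl6+ cells, 3904 to 3919 for Cxcr5+Bcl6- cells and 10061 to 10106 for Cxcr5-Bcl6- cells.

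Of the 22 myeloid markers, 10 were lower, 3 higher and 9 not passed in Cxcr5+Bcl6+ against Cxcr5-Bcl6- cells (median -0.15). Of all named probe sets, 17.7% were called lower and 17.6% higher there. In Cxcr5+Bcl6+ against Cxcr5+Bcl6- cells 5 of the 22 were lower, 2 higher and 15 not passed (median 0.13). Of all named probe sets, 13% were called lower and 13.4% higher in that comparison. The pDC markers Siglech, Ccr9, Pld4, Rnase6 and Lair1 and 19 of the 22 myeloid markers lay below the 95th percentile of the unused receptors in Cxcr5+Bcl6+ cells, and in Cxcr5+Bcl6- cells Lair1 and 12 of the 22 did. Of 13 B cell markers, 9 were higher and 2 lower in Cxcr5+Bcl6+ cells than among Cxcr5-Bcl6- cells, with sums of 4353 to 4549 for Cxcr5+Bcl6+ cells, 3015 to 3156 for Cxcr5+Bcl6- cells and 2284 to 2443 for Cxcr5-Bcl6- cells. Of 12 markers of CD8 T and NK cells, 7 were lower and 1 higher in Cxcr5+Bcl6+ cells than among Cxcr5-Bcl6- cells, with sums of 1830 to 1947, 2881 to 2944 and 3850 to 3985 in the same order of groups. Of the 13 B cell markers, 7, 3 and 7 lay below the 95th percentile of the unused receptors, again in that order of groups. Of the 12 CD8 T and NK cell markers, 9, 6 and 6 did. Counts and sums of both lists are therefore limited by background. The part of RNA from dendritic, myeloid, B, CD8 T and NK cells in the Irg and Gbp levels was not tested.

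Of the 12 T cell core genes measured, 4 were higher, 4 lower and 4 not passed in Cxcr5+Bcl6+ against Cxcr5-Bcl6- cells (median 0.01), and their summed level was 68250 to 70653 for Cxcr5+Bcl6+ cells, 67949 to 68025 for Cxcr5+Bcl6- cells and 64825 to 64968 for Cxcr5-Bcl6- cells. Cd4 had means of 12.72, 12.44 and 11.93 in those groups. None of the 12 lay below the 95th percentile of the unused receptor genes in any group. Against Cxcr5-Bcl6- cells, Cd4 differed by 0.79 in Cxcr5+Bcl6+ cells (adjusted p = 2.76e-05 in limma) and Trat1 by -0.80 (adjusted p = 2.68e-05). In Cxcr5-Bcl6- cells the pDC marker Siglech (mean 10.38) and Ccl22 of the myeloid list (11.37) stood above 100% of the unused receptor probe sets. The T cell markers therefore do not show that this group held T cells alone. The sort genes followed their labels. Mean Bcl6 was 11.50 for Cxcr5+Bcl6+ cells, 10.56 for Cxcr5+Bcl6- cells and 10.31 for Cxcr5-Bcl6- cells, and mean Cxcr5 was 10.996, 9.94 and 7.47. Pearson's r between replicate arrays, across probe sets, was 0.9966 to 0.9985. Over the 1218 unused receptor probe sets, the median difference in log2 level was 0.223 for Cxcr5+Bcl6+ minus Cxcr5-Bcl6- cells. For Cxcr5+Bcl6+ minus Cxcr5+Bcl6- cells it was 0.298. What this shift means for the Irg and Gbp differences was not tested.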

How the data were processed

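The deposited values are log2 probe-set levels of 6 Affymetrix whole-transcript arrays, which the authors normalised across arrays; per the submitters' processing notes the tools were GCOS 1.1, RMA and Affymetrix Expression Console, with no settings given. Their range shows the log2 scale. Scanner files were not used here, the genome build is not stated by the labels, and no other background correction was tried. Precision is limited by the number of arrays, and an exact permutation test of 2 arrays against 2 could not go below p = 0.333.

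Gene symbols came from the platform annotation, updated through Entrez identifiers against RefSeq: 21789 probe sets had 1 symbol, 1621 several and 12146 none. limma 3.58.1 (R 4.3.3) fitted group means over all 6 arrays to the 23410 named probe sets, with eBayes at default settings (3 residual degrees of freedom, prior 8.25). The fit was tested on simulated data. For lists, each gene was read from its brightest singly named probe set; lists are described by counts and medians without a test. Named genes were the members, up to 4 genes per list and comparison with the smallest p, the sort genes and the 5 nearest patterns; others are said to have been seen first. The members and lists were chosen with earlier results of these data known. Alternatives are listed in the closing section. Motifs were searched as exact strings.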

Additional observations from a re-analysis of the deposited data

How the results depend on the processing

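The falls of the 7 Irg and Gbp probe sets in Cxcr5+Bcl6+ cells kept their direction and their call under 19 alternatives, wherever the probe set was tested, with log2 differences of -4.22 to -1.74 against Cxcr5-Bcl6- and -3.87 to -1.88 against Cxcr5+Bcl6- cells. They covered eBayes (robust, or with an intensity trend), a second quantile normalisation or centring, which probe sets were tested (brighter than the 25th percentile or the median, singly named, 1 for each gene, or all rows), fits to 4 arrays, thresholds (adjusted p under 0.1, or a 1.5-fold minimum), the replicate block and each of 6 arrays left out. Whether the replicate numbers pair the arrays was not settled. Deviations of same-numbered arrays correlated at -0.234 for Cxcr5+Bcl6+ and Cxcr5-Bcl6- cells and at -0.046 for Cxcr5+Bcl6+ and Cxcr5+Bcl6- cells. For Cxcr5+Bcl6- and Cxcr5-Bcl6- cells they correlated at 0.258. With the numbers as a replicate block all 7 stayed lower in both comparisons of Cxcr5+Bcl6+ cells. The 2 calls between Cxcr5+Bcl6- and Cxcr5-Bcl6- cells became 0 after centring, with all rows and with the 1.5-fold minimum, and 0 to 2 without 1 array. Over all named probe sets, the 1.5-fold minimum gave 3470 calls for Cxcr5+Bcl6+ against Cxcr5-Bcl6-, 822 for Cxcr5+Bcl6- against Cxcr5-Bcl6- and 1952 for Cxcr5+Bcl6+ against Cxcr5+Bcl6-. Testing all rows gave 9010, 1579 and 5565 in that order, against 8255, 2610 and 6185 in the main fit. Without 1 array these counts ran from 6780 to 8370, from 1317 to 2624 and from 3617 to 6987 in the same order of comparisons, the lowest of the last 2 without Cxcr5+Bcl6- replicate 1. With the replicate block they were 7942, 2411 and 5862. Tests on all rows adjust over more probe sets, and tests without 1 array rest on fewer arrays. The cause of these shifts was not tested. The receptor genes set the level below which a fall cannot be read, which Iigp1 reached in Cxcr5+Bcl6+ cells.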

Other observations

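Transcripts of the conjugation proteins that load Irg and Gbp proteins onto vacuoles moved in both directions. Of 13 measured, 5 were higher, 5 lower and 3 not passed in Cxcr5+Bcl6+ against Cxcr5-Bcl6- cells, with a median log2 difference of -0.06. Traf6 and Trim21, ubiquitin ligase genes, differed by -1.07 and -0.82, and Atg3, Atg16l1 and Atg5, which act in the lipidation of Atg8 proteins, by -0.70, -0.66 and -0.54. The 5 that rose were the Atg8 family genes Map1lc3b (0.49), Gabarapl1 (0.43), Gabarap (0.42) and Gabarapl2 (0.26) and the autophagy receptor gene Sqstm1 (0.37); Atg5, Map1lc3b, Gabarapl1 and Gabarapl2 were named after their values were seen. In Cxcr5+Bcl6+ against Cxcr5+Bcl6- cells 4 were lower, 2 higher and 7 not passed (median -0.14). Between Cxcr5+Bcl6- cells and Cxcr5-Bcl6- cells 2 of the 13 were lower and 11 not passed (median 0.03).

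A pair of probe sets shared by the Irg relatives 9930111J21Rik1 and 9930111J21Rik2 took another course and are given after their values were seen. The probe set 10385513 had log2 levels of 11.28 and 11.43 in Cxcr5+Bcl6+ cells, 11.68 and 11.59 in Cxcr5+Bcl6- cells, and 11.15 and 11.07 in Cxcr5-Bcl6- cells. It was higher by 0.53 in Cxcr5+Bcl6- cells than among Cxcr5-Bcl6- cells (adjusted p = 0.00379 in limma), and differed by 0.25 between Cxcr5+Bcl6+ cells and Cxcr5-Bcl6- cells (adjusted p = 0.0635). The other probe set of the pair, 10385526, differed by 0.52 and 0.23 in those comparisons. The 3 probe sets that carry Gvin1, a gene for a very large interferon-induced GTPase, differed by -1.03 to -0.95 between Cxcr5+Bcl6+ cells and Cxcr5-Bcl6- cells.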
